A study of Rattus norvegicus with 18 samples.

Results

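All 12 libraries of rat intestine exposed to X-rays, 6 from rats given 10 Gy alone and 6 from rats given 10 Gy and then Changbing Formula, were set against the 6 libraries of rats given no treatment, out of 18 in all. The 12 were chosen by treatment label only. The rats are labelled wild type Sprague–Dawley, an outbred stock, and the radiation was a single dose. RNA of the intestinal tissue was selected for poly(A) and sequenced in bulk. The labels name no intestinal segment, interval between dose and collection, hour of collection, sex or number of pooled animals, and the same batch number is given for every library. The free-text descriptions call all 18 samples untreated, against the titles and treatment fields from which the groups were taken.

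Ionizing radiation breaks DNA, and in the intestine it acts first on the dividing cells at the base of the crypts, which renew the epithelial lining. Loss of these cells thins the barrier until surviving crypts regrow, and leukocytes and matrix-forming cells respond in the wall beneath. Pooling both irradiated groups asks which RNA levels differ from untreated tissue in the mean of both groups. A change in a single group can also move that mean, so a pooled difference need not be present in each group. In bulk tissue, fewer cells of a type and less RNA per cell cannot be told apart. The deposited table carries Ensembl identifiers without symbols. The labelled tissue was therefore not checked against marker genes, and what the genes below encode is not stated.

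Whole-library measures did not separate irradiated from control tissue. Totals ran from 33598572 to 48398184 counts. Of the variance in log2 CPM (counts scaled to library size), 3.42% lay between irradiated and control libraries (exact permutation p = 0.859 over 18564 arrangements). The mitochondrial chromosome took 21.2% ± 8.46 of counts in irradiated (SD, n = 12) and 19.5% ± 5.34 in control libraries (SD, n = 6). Genes on the Y chromosome had counts in every library, from 99.5 to 292 CPM. None of 6 such measures differed in a two-sided exact permutation test, with adjusted p from 0.786 to 0.931. Control 2 and irradiated 4 stood apart on the first principal component, which held 40.2% of the variance.

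Of 16593 genes tested, 1 rose (0.00603%) and 2 fell (0.0121%) in the pooled irradiated libraries at an adjusted p below 0.05 in edgeR's quasi-likelihood test, which is 0.0181% of the genes. ENSRNOG00000014448 rose 3.16-fold, ENSRNOG00000021027 fell 6.86-fold and ENSRNOG00000042717 fell 9.98-fold. All 3 moved the same way with and without the formula, and for all 3 the group given the formula lay further from control. Without adjustment, 592 genes had p below 0.05, 3.57% of those tested, where 830 would be expected if no gene differed. Of these, 241 were higher (1.45%) and 351 lower (2.12%). From the same model and controls, radiation alone gave 0 calls and 321 genes (1.93%) with p below 0.05, and radiation with the formula gave 2 calls (0.0121%) and 948 genes (5.71%). These unadjusted counts moved with single libraries. Without control 2 the pooled count was 1406, and without irradiated 4 it was 1229, both above 830. Radiation alone gave 2130 genes without control 2, more than the 1039 with the formula in that fit, and it gave 160 without control 3, 177 without control 6 and 503 without irradiated 4.

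ENSRNOG00000014448 has 23 exon blocks on chromosome 1 of mRatBN7.2 (167331633 to 167430231, forward strand), and its exons overlap those of no other annotated gene. In control replicates 1 to 6 its level was 23.9, 13.8, 25.9, 15.6, 14.9 and 12.4 CPM. With radiation alone it was 26.1, 43.4, 46.2, 16.2, 48.9 and 52.7 CPM. With the formula it was 71.9, 82.8, 57.7, 83.2, 86.2 and 104 CPM. Of the 12 irradiated libraries, 11 lay above all controls, and irradiated 4 was the exception. Irradiated 1 exceeded the highest control only narrowly.

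The group means of this gene were 17.8 ± 5.68 CPM for control, 38.9 ± 14.4 for radiation alone and 81.0 ± 15.4 with the formula (SD, n = 6). The pooled log2 fold change was 1.66 (SE 0.25, edgeR adjusted p = 0.026). Against the same controls it was 1.13 (SE 0.27, edgeR adjusted p = 0.998) without and 2.19 (SE 0.27, edgeR adjusted p = 0.0029) with the formula. The difference between the irradiated groups, 1.06 on the log2 scale (SE 0.27), had an unadjusted p of 0.00092 and did not pass over all genes (edgeR adjusted p = 0.770).

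ENSRNOG00000021027 lies on the same chromosome and strand, with 3 exon blocks between 96175440 and 96180745. Its control levels were 125, 59.9, 106, 118, 175 and 263 CPM in replicates 1 to 6. Irradiated replicates stood at 84.2, 30.6, 64.0, 30.2, 22.2 and 12.1 CPM. Replicates given the formula stood at 12.4, 6.18, 11.6, 12.1, 5.38 and 14.9 CPM. Here 10 of the 12 irradiated libraries were below the lowest control, and irradiated 1 and irradiated 3 were within the range of the controls.

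Its mean was 141 ± 70.1 CPM for control, 40.5 ± 27.6 for radiation alone and 10.4 ± 3.79 with the formula (SD, n = 6). The pooled log2 fold change of -2.78 (SE 0.36) had an edgeR adjusted p of 0.0070. The separate values were -1.80 (SE 0.44, edgeR adjusted p = 0.998) without and -3.76 (SE 0.47, edgeR adjusted p = 0.0029) with the formula. Between the irradiated groups the log2 difference was -1.96 (SE 0.44, unadjusted p = 0.00034), again short of the threshold over all genes (edgeR adjusted p = 0.770).

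ENSRNOG00000042717 was called in the pooled comparison and in neither irradiated group on its own. Its 6 exon blocks lie between 183419819 and 183423313 on the reverse strand of chromosome 2. Control levels were 11.1, 4.30, 10.1, 12.1, 15.1 and 40.3 CPM, where control 6 alone supplied 35.3% of the summed level of all 18 libraries. Irradiated levels were 7.99, 1.75, 3.80, 0.803, 0.843 and 0.686 CPM, and levels with the formula were 1.20, 0.848, 0.716, 0.458, 0.553 and 1.68 CPM. Every irradiated library except irradiated 1 was below the lowest control, 11 of 12.

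For this gene the pooled log2 fold change was -3.32 (SE 0.52, edgeR adjusted p = 0.031), against -2.55 (SE 0.65, adjusted p = 0.998) without and -4.09 (SE 0.70, adjusted p = 0.090) with the formula. Without control 6 the pooled value was -2.76 and no longer passed (edgeR adjusted p = 0.192). Between the irradiated groups it differed by -1.54 (SE 0.63, unadjusted p = 0.026, edgeR adjusted p = 0.770).

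ENSRNOG00000011668 (chromosome 17, 12280484 to 12295858, forward strand) came next by p among the higher genes and did not pass (log2 fold change 2.04, SE 0.48, edgeR adjusted p = 0.562). Control libraries lay between 1.25 and 10.0 CPM, irradiated ones between 5.90 and 28.3 CPM and those given the formula between 14.4 and 56.3 CPM. The irradiated libraries fell into 2 ranges, with replicates 1, 5 and 6 at 26.4 to 28.3 CPM and replicates 2, 3 and 4 at 5.90 to 8.76 CPM, inside the range of the controls.

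**Figure D1:**
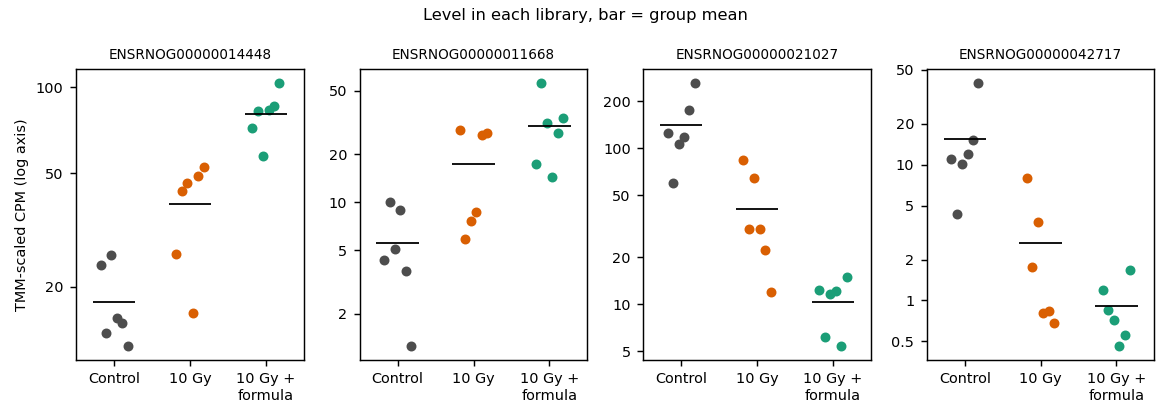
Level of the 4 genes printed by identifier in each of the 18 libraries, in TMM-scaled CPM on a log axis, with replicates 1 to 6 from left to right within a group and bars at group means. For ENSRNOG00000014448 and ENSRNOG00000021027 the 6 libraries with the formula are clear of the 6 controls, while 1 and 2 of the 6 irradiated libraries, respectively, lie within the range of the controls.

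The calls depended on how the irradiated libraries were pooled and on single libraries. The model used here gives each gene a single estimate of the spread, taken within the 3 groups and shared by them. Treating the 12 irradiated libraries as 1 group, so that the gap between both irradiated groups counts as spread, called 0 genes, and 569 had p below 0.05 before adjustment. With the 3 groups kept, DESeq2 called 15 genes and limma-voom 3. In the 2-group model the edgeR adjusted p was 0.269 for ENSRNOG00000014448, 0.298 for ENSRNOG00000021027 and 0.269 for ENSRNOG00000042717, with log2 fold changes of 1.75, -2.47 and -3.12.

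With each library left out in turn, between 1 and 5 genes were called. ENSRNOG00000021027 passed in all 18 of these fits, with edgeR adjusted p from 0.0022 to 0.046 and log2 fold changes from -2.95 to -2.51. ENSRNOG00000014448 passed in 7, those without control 1, control 3, irradiated 1, irradiated 4, irradiated 5, formula 3 or formula 6, and its adjusted p reached 0.141. ENSRNOG00000042717 passed in 4, those without control 2, irradiated 1, irradiated 4 or formula 6, and its adjusted p reached 0.192. The count was 5 without irradiated 1 or irradiated 4, and 1 without control 4, 5 or 6, without irradiated 2, 3 or 6, or without formula 1, 2, 4 or 5. The log2 fold change of ENSRNOG00000014448 stayed between 1.57 and 1.80, and that of ENSRNOG00000042717 between -3.69 and -2.76.

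**Figure D2:**
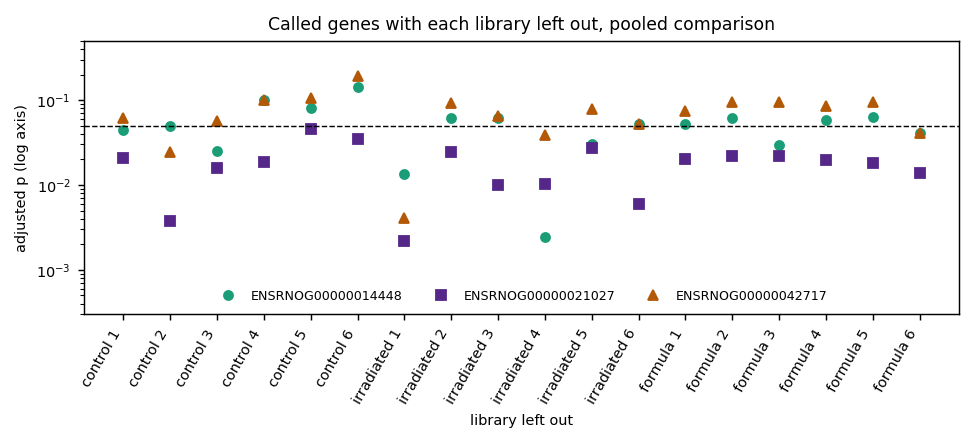
Adjusted p of the 3 called genes in the pooled comparison (log axis) with each library left out in turn, named on the horizontal axis, and a dashed line at 0.05. ENSRNOG00000021027 is below the line in all 18 fits, ENSRNOG00000014448 in 7 and ENSRNOG00000042717 in 4.

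A pair of further genes with lower levels missed the threshold and passed it without control 2, irradiated 1 and irradiated 4, which were left out together because they stood apart in earlier results. The first has 21 exon blocks on chromosome 5 (161459533 to 161495607, reverse strand). It stood at 50.8 ± 16.2 CPM for control, 20.6 ± 10.1 for radiation alone and 13.1 ± 4.02 with the formula (SD, n = 6), with a pooled log2 fold change of -1.63 (SE 0.29, edgeR adjusted p = 0.095). Below the lowest control, control 2, were 9 of the 12 irradiated libraries, and irradiated 1, 2 and 3 were above it.

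The second has 5 exon blocks on chromosome 7 (113317283 to 113341783, forward strand). Its means were 96.0 ± 31.8, 44.1 ± 24.5 and 26.7 ± 6.89 CPM in the same order (SD, n = 6), with a pooled log2 fold change of -1.48 (SE 0.26, edgeR adjusted p = 0.095). Here 10 of 12 were below the lowest control, and irradiated 1 and 3 were not. Without the 3 libraries named above, the edgeR adjusted p was 0.0035 for the gene on chromosome 5 and 0.0027 for that on chromosome 7. The number of genes called was then 8, 3 higher and 5 lower, and included all 3 called with every library. With single libraries left out, each of both genes passed in 2 of 18 fits. That on chromosome 5 passed without control 2 (edgeR adjusted p = 0.0295) or irradiated 4 (edgeR adjusted p = 0.0288, log2 fold change -1.53). That on chromosome 7 passed without control 2 (edgeR adjusted p = 0.0295) or irradiated 1 (edgeR adjusted p = 0.0134). Control 2 was the lowest control of both genes, and irradiated 1 the highest irradiated library of that on chromosome 7. Leaving these out widens the gap. Leaving out irradiated 4, the lowest library given radiation alone in both genes, narrows it. The adjusted p without the 3 libraries therefore give no separate support for either gene.

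Irradiated 1 had the highest irradiated level of ENSRNOG00000021027, of ENSRNOG00000042717 and of the gene on chromosome 7, followed in each by irradiated 3. The levels of ENSRNOG00000021027 and ENSRNOG00000042717 rose and fell together among libraries of the same group. Their deviations from group means, as log2(CPM + 1), had a Pearson r of 0.87 (permutation p = 3.0e-05, adjusted p = 9.0e-05 over 3 pairs of called genes) and a Spearman rho of 0.83 (permutation p = 0.00019, adjusted p = 0.00057) over 18 libraries, and r was 0.84 without irradiated 1 and irradiated 6. ENSRNOG00000014448 showed no such relation that passed, with r of -0.29 (permutation p = 0.37, adjusted p = 0.55) to the first and -0.15 (permutation p = 0.63, adjusted p = 0.63) to the second. Spearman's rho for these was -0.32 (permutation p = 0.25, adjusted p = 0.37) and -0.23 (permutation p = 0.42, adjusted p = 0.42). Without irradiated 4 and formula 3 these values of r were -0.41 and -0.45.

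Across all genes, the 12 irradiated libraries were entirely below the 6 controls for 1 gene (0.00603%) and entirely above for 0. With 16593 genes and 18564 ways to choose 6 of 18 libraries, a single such gene can arise without any difference. That gene has 20 exon blocks on chromosome 10 (45007637 to 45029650, reverse strand). It lay between 32.4 and 43.2 CPM for control, 20.5 and 28.8 CPM for radiation alone and 14.4 and 24.4 CPM with the formula. The pooled change was small, with a log2 fold change of -0.61 (SE 0.12), and did not pass (edgeR adjusted p = 0.205). Because 1 gene on the other strand shares exon sequence with it, reads from the shared stretch cannot be told apart between both genes. Radiation alone separated no further gene from control, whereas the formula group was entirely above control for 81 genes (0.488%) and below for 57 (0.344%). How many genes would separate so if none differed was not computed.

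Genes were then divided by whether 1 or both irradiated groups differed from control at an unadjusted p below 0.05. In both groups and in the same direction were 94 genes, 0.567% of those tested, 35 higher (0.211%) and 59 lower (0.356%). No gene differed in both with opposite directions. Both comparisons use the same 6 controls, so this count is a description, and it includes all 3 called genes. A gene past a threshold in a single group is not thereby shown to differ between groups. Where the irradiated groups also differed from each other at an unadjusted p below 0.05, 46 genes (0.277%) were past it for radiation alone only and 293 (1.77%) for the formula group only. None of those differences passed over all genes, the lowest adjusted p being 0.445.

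**Figure D3:**
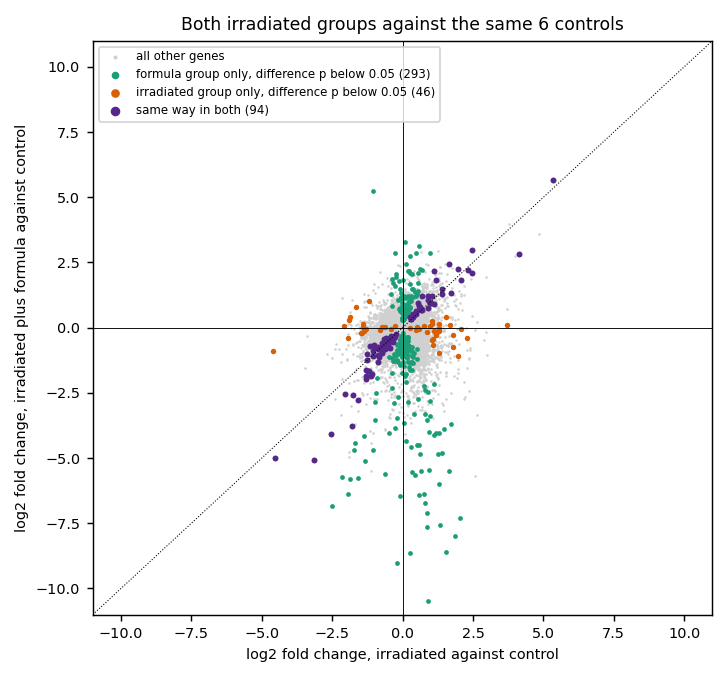
Log2 fold change of each tested gene in irradiated (horizontal) and irradiated plus formula libraries (vertical) against the same 6 controls, with the dotted line marking equal change. Purple points are the 94 genes with the same direction in both, green points the 293 of the formula group only and orange points the 46 of the irradiated group only.

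The 94 shared genes changed mostly by less than 2-fold. Their median absolute log2 fold change was 0.82, against 0.18 over all tested genes, and 34 of the 94 exceeded 2-fold. A larger change than over all genes follows from the rule that selected them. Among those that were higher, the median pooled log2 fold change was 0.97, and among those lower -0.77. Their median level was 10.9 CPM, against 14.8 CPM over all genes tested. By level, 12 were below 1 CPM, 34 from 1 to 10 CPM, 40 from 10 to 100 CPM and 8 above 100 CPM. In these ranges they were 0.528%, 0.715%, 0.510% and 0.466% of the genes tested.

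In 66 of the 94 the change was larger with the formula than without it, a larger share than the 9388 of all 16593 genes tested. This difference in share was not tested. Between the irradiated groups, 5 of the 94 differed at an unadjusted p below 0.05, as did 928 of all genes tested (5.59%). The 5 include the 3 called genes, the gene on chromosome 7 and the gene on chromosome 10, all further from control with the formula. The median log2 fold change of the 35 higher genes was 0.91 without and 0.95 with the formula, and that of the 59 lower genes was -0.73 and -0.76.

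**Figure D4:**
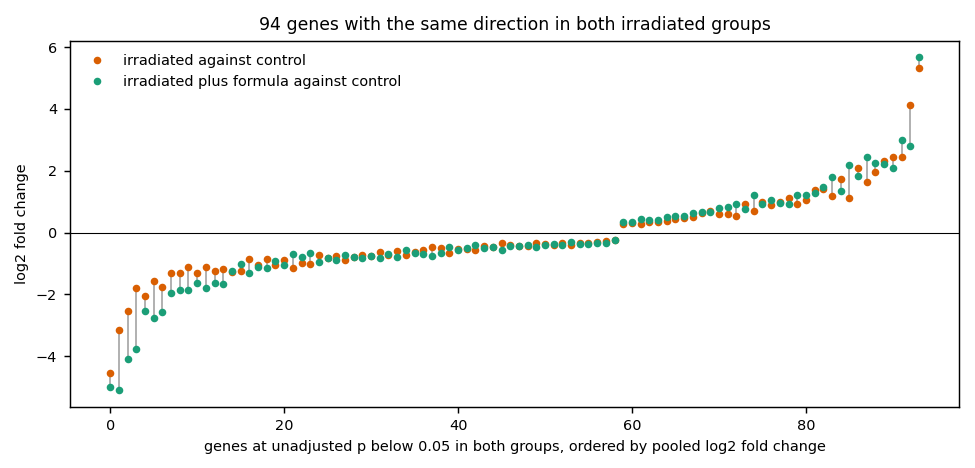
Log2 fold changes against control of the 94 genes with the same direction in both groups, ordered by the pooled value, with radiation alone in orange, radiation plus formula in green and a grey line joining both. The 59 lower genes are on the left and the 35 higher on the right.

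The balance of directions in this shared class depended on scaling and on single libraries. With TMM 37.2% of its genes were higher. With size factors of the DESeq2 type (RLE) 54 of 89 were higher, 60.7%, and 58 of 91, 63.7%, once mitochondrial genes were left out. The median log2 fold change of all genes was -0.04 with TMM and -0.01 with each of those. The 3 called genes passed under each of these scalings.

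Membership depended on single libraries as well. The class held between 47 and 335 genes with each library left out, the lowest without control 3 and the highest without control 2. It held 61 without control 6, 165 without irradiated 1 and 237 without irradiated 4. The higher genes were 81 of 110 (73.6%) without irradiated 5, 35 of 165 (21.2%) without irradiated 1, and 277 of 459 (60.3%) without control 2, irradiated 1 and irradiated 4. In all 18 of these fits 17 of the 94 were retained, 7 higher and 10 lower. Those 17 had a median absolute log2 fold change of 1.48, and 11 of them exceeded 2-fold, which their selection in every fit favours. They include the 4 genes printed by identifier and the genes given above by position on chromosomes 5, 7 and 10.

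Genes that took more than 30% of their summed level from 1 library made up 6 of the 94, or 6.4%, near the 5.9% of all genes tested. An example is a gene on chromosome 6 (24089214 to 24210117, reverse strand), where control 2 stood at 400 CPM and supplied 91.4% of the sum. The other controls lay between 0.889 and 2.31 CPM, and the means were 2.92 CPM for radiation alone and 2.15 CPM with the formula. Its pooled log2 fold change of -4.76 (SE 1.10) did not pass (edgeR adjusted p = 0.562). The medians were 1.40 CPM for control, 1.81 CPM for radiation alone and 1.93 CPM with the formula. Its place among the lower genes therefore rests on control 2.

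Of the 293 genes of the formula group only, 195 were lower (1.18%) and 98 higher (0.591%) than control in the pooled contrast, and 85, or 29.0%, took over 30% of their sum from 1 library, which was irradiated 1 for 39 of them and control 2 for 10. A run of 3 consecutive tested genes at 70433166 to 70546522 on chromosome 16 belongs here. The first of these had a mean of 85.5 CPM for control, 75.0 CPM for radiation alone and 0.161 CPM with the formula. Control 2 alone supplied 53.2% of its sum over all 18 libraries, which is nearly all of the control level. The control mean therefore does not describe the other controls. The second gene had means of 63.6, 76.9 and 0.162 CPM in the same order, and irradiated 1 alone supplied 48.2% of its sum. That is most of its level with radiation alone, so this mean does not describe the other irradiated libraries. How the irradiated level of the first gene was spread over libraries is not given here. Without control 2, irradiated 1 and irradiated 4 the formula-only class held 164 genes, of which 91 were shared, and the irradiated-only class 56, of which 18 were shared. The shared class then held 459, with 77 of the 94.

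In 43 of the 293 genes the formula libraries were clear of all controls, against 138 of all 16593 genes tested. The class requires a difference of the formula group from these controls, so a larger share follows from the rule. The 2 with the lowest p for the difference between the irradiated groups are among these 43 and do not stand for the class. A gene on chromosome 7 (8347314 to 8353988, reverse strand) lay between 4.41 and 8.64 CPM for control, 3.37 and 7.09 CPM for radiation alone and 9.54 and 13.6 CPM with the formula. Because 1 neighbouring gene shares exon sequence with it, its counts are uncertain. Another on chromosome 7 (110595091 to 110601473, forward strand) lay between 2.09 and 4.43 CPM, 1.99 and 4.19 CPM, and 0.917 and 1.46 CPM in the same order. In both genes the libraries with the formula overlapped none of the other 12, which their choice by lowest p favours. Their pooled log2 fold changes were 0.22 (SE 0.18) and -0.77 (SE 0.22). Among genes of the irradiated group only, one on chromosome 6 (95493589 to 95496877, reverse strand) had means of 143 ± 55.4 CPM for control, 303 ± 266 CPM for radiation alone and 106 ± 29.6 CPM with the formula (SD, n = 6). Its irradiated libraries ran from 95.1 to 805 CPM and overlapped the controls.

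By chromosome the 94 genes were spread thinly, with 12 of 2090 tested genes on chromosome 1, 8 each on chromosomes 4, 7 and 10, and 0 of 533 on chromosome 13. On the X chromosome there were 6 of 539, or 1.113%. A single pair of consecutive tested genes belonged to the class, at 42514306 to 42529611 on chromosome 17 and 675 bases apart. The mean level of the first went from 0.276 CPM in control to 1.53 and 2.21 CPM, and the second from 0.825 to 3.23 and 3.95 CPM, without and with the formula respectively. Neither passed over all genes, with pooled log2 fold changes of 2.71 and 2.11.

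Pooling narrowed the intervals, with a median SE of 0.30 for the pooled log2 fold change and 0.35 for each group alone. A 2-fold difference fell outside the 95% interval, both up and down, for 58.7% of genes when pooled, 50.8% for radiation alone and 48.8% with the formula. In simulated counts with these group sizes 32.8% of 2-fold changes were called. Those counts had the same change in both irradiated groups and no outlying library, and 139 genes were called in all. The share therefore cannot be carried over to the real libraries, where 3 genes were called.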

How the data were processed

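The authors deposited unnormalized gene counts of 18 libraries, made with featureCounts 2.1.1 on mRatBN7.2 with Ensembl annotation release 110, per the file headers. The submitters' processing notes list STAR, fastp, FastQC and SAMtools; their versions are not given in the sources used here. No strand option and no read-pair option was set, per the file headers. Between 66.9% and 74.6% of counts from 1 to below 40 in a library were even, so both reads of a pair were largely counted and counting error is larger than the counts imply. Every sample column was used.

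Groups come from the sample titles. Counts were tested in R 4.3.3 with edgeR 4.0.16 (filterByExpr, TMM, quasi-likelihood test) in a single model of the 3 groups over all 18 libraries without covariates, with Benjamini-Hochberg adjustment over the 16593 genes kept and a threshold of 0.05. The pooled contrast was the mean of both irradiated groups minus control. Standard errors were derived from the F statistic (|log2 fold change|/√F). Levels are TMM-scaled CPM. The biological coefficient of variation was 60.8%.

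The comparison, gene classes and alternatives were chosen with earlier results of these data known. The rule for named genes took called genes, filled to 10 per direction by lowest p at a mean of at least 1 CPM, with list members and up to 5 genes of each one-group class. The table carries Ensembl identifiers only and the gene table used here matched 0 of them, so the marker and pathway lists that had been drawn up, and promoter sequences, were not used here, and the rule was applied only to the genes of lowest p in each direction. Further genes are given by position, chosen after their values were seen. In simulated counts for the pooled comparison, in a fit of 16390 genes, 32.8% of 67 genes changed 2-fold, 71.6% of 67 changed 4-fold and 90.9% of 66 changed 8-fold were called. Changed genes had at least 1 CPM, both irradiated groups were given the same change, and no library was made to stand apart. No 2 libraries agreed within sampling noise (lowest median chi-square 6.04 over 153 pairs). Alternatives were other scalings and filters, DESeq2 1.42.0, limma 3.58.1, a 2-group model, a replicate term and left-out libraries. The p-values measure the spread between libraries, and the labels do not state that each is a separate animal.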

Additional observations from a re-analysis of the deposited data

Results flagged for a closer look

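Within each group of 6 libraries, the highest or lowest value was compared with its nearest neighbour for 36 combinations of measure and group, and 6 stood far from the rest, where chance gives about 1.8. On the first principal component control 2 scored 176, irradiated 4 scored 216 and formula 4 scored 34.2. Irradiated 4 also had the highest count on the Y chromosome, 292 CPM, and formula 4 the most genes at 1 CPM or more, 14362. For ENSRNOG00000042717, control 6 stood at 40.3 CPM, and the pooled difference did not pass without it.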

How the results depend on the processing

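The pooled comparison called 3 genes. DESeq2 called 15, limma-voom with quality weights 133, the 2-group model 0 (lowest adjusted p 0.269), the fit with a replicate block 0 (lowest adjusted p 0.0607, with 352 genes at an unadjusted p below 0.05), and the fit without control 2, irradiated 1 and irradiated 4 called 8. Leaving out each library gave 1 to 5. The formula group against control had 2 calls, 47 with DESeq2, 499 with quality weights, 1 with the replicate block, 7 without those 3 libraries and 2 to 5 with each library left out. The formula group against radiation alone had 0 calls and 8 with DESeq2. Radiation alone had 0 calls in all 29 alternatives, but its count at an unadjusted p below 0.05, 321 in edgeR, ran from 160 without control 3 to 2130 without control 2, and was 1818 with quality weights and 435 with DESeq2. The pooled count of 592 became 1406 without control 2, 1229 without irradiated 4, 1630 without the 3 libraries and 3360 with quality weights. The class with the same direction in both groups held 94 genes, 176 with no filter on low counts, 1085 with quality weights, 48 with the replicate block, 459 without the 3 libraries and 47 to 335 with each library left out. None of the 4 genes printed by identifier, nor those on chromosomes 5, 7 (113317283) and 10, changed direction in the pooled comparison under the alternatives run, but the majority within that class turned from lower to higher with RLE scaling (54 of 89 higher), without mitochondrial genes (58 of 91), with DESeq2 (73 of 132), with no filter (90 of 176), without irradiated 5 (81 of 110) and without the 3 libraries (277 of 459). The replicate numbers are shared in the labels but 5 of 18 same-numbered pairs correlated above 0.1 (range -0.51 to 0.61), so they were not taken as pairs. The cause of these differences was not tested.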
